A study of Homo sapiens with 17 samples.

Results

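The comparison described here is the effect of retinoic acid (RA) in CHP-134 tumors minus its effect after 1 day in cultured CHP-134 cells. It used 13 of the 17 libraries of the series, taken by their labels: 4 of RA tumors, 5 of control tumors, 2 of ATRA cells and 2 of DMSO cells. CHP-134 is an established human neuroblastoma line with extra copies of the oncogene MYCN. RA tumors came from luciferase-labeled CHP-134 cells injected under the skin of female athymic nude mice about 12 weeks old, which were then dosed orally with 13-cis-RA, 2 times daily and 25 mg/kg each time. Control tumors grew from the same cells in the same kind of mouse, and are untreated by their label and vehicle-treated by the study's methods. ATRA cells were kept for 1 day in 2 µM all-trans RA (ATRA), and DMSO cells received its solvent. The comparison asks which early ATRA genes also responded in tumors, and which did not. Isomer, dose, duration, host and library kit all differed between cells and tumors, so their parts in any difference cannot be told apart. A limit on the time between the last dose and collection is stated for tumors assayed for drug levels, and whether it covers the tumors used for RNA is not given in the sources used here.

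Retinoic acid enters the nucleus and binds receptors of the RAR family, which pair with RXR receptors on DNA and switch bound genes from repressed to active. The best known direct targets act back on the pathway: RARB is itself a receptor gene, CYP26 enzymes break retinoic acid down, and CRABP proteins carry retinoic acid inside the cell. In neuroblastoma, a tumor of the developing sympathetic nervous system, RA drives cells to differentiate toward neurons or to die, and 13-cis-RA is used as a maintenance drug that the body converts in part to ATRA.

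The classic RAR site is a direct repeat of a 6-base half-site with 5 bases between the copies (DR5). It is shown here for the pathway's own gene RARB, whose effects are given later, and for CYP26A1, which carries the site on the other strand. Capitals mark the half-sites, and both stretches are the plus strand of RefSeq promoters on GRCh38.p14.
RARB, chr3:25428190-25428246: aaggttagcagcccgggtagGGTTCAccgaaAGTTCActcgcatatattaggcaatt
CYP26A1, chr10:93073783-93073839: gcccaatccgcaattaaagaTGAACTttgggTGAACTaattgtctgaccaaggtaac
The RARB repeat ended 36 bases before the start that this RefSeq promoter belongs to, which lies inside the gene as annotated (24687887 to 25597932). That of CYP26A1 lay 73 bases before the start of its promoter entry. The search allowed the half-sites AGGTCA and GGGTCA as well as AGTTCA and also GGTTCA, on both strands, in a window of 250 bases before to 50 bases after the start. It matched 31 of 35116 promoters (0.0883%). Of the 255 genes called higher at 1 day and described next, 141 had a promoter in the table, and RARB was the only one that held the repeat. A match describes the letters of this window alone.

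Libraries of tumors held 17266558 to 29078889 counts and those of cells 34450006 to 39422897. Tumors of a group varied far more than cells: the biological coefficient of variation was 13.88% in tumors and 2.65% in cells. On the first principal component of the tumors, which held 30.7% of the variance, RA tumors 1, 2 and 3 lay at -28.21, -17.58 and -17.62 and RA tumor 4 at 4.58. Control tumors 1, 3 and 5 lay at 26.28, 16.53 and 19.11, while control tumors 2 and 4 lay at 1.89 and -4.97, on the side of RA tumor 4 toward RA tumors 1 to 3. The 13 neuroblastoma markers summed to 4375 to 4711 CPM in RA tumors and 3329 to 5130 CPM in control tumors, and to 4043 to 4141 CPM in ATRA cells and 3743 to 3787 CPM in DMSO cells. Of 10 endothelial, 13 leukocyte and 9 red cell markers, 8, 12 and 8 were under 1 CPM in RA tumors, and 8, 12 and 9 in control tumors. Of 9 Schwann cell markers, 4 were under 1 CPM in RA tumors and 2 in control tumors, against 8 in ATRA cells and 8 in DMSO cells. These are counts of human genes, and removal of mouse reads is not given, so they do not measure how many mouse host cells the tumors held. Exons of 29 of the 74 genes followed here overlap another gene. As the strand setting of the counting is not given, their reads cannot be told apart from those of the overlapping gene, which applies to PLEKHA6, FAM163A, FSTL4, PRKCH, CEMIP, ENPP2, APCDD1L, FAXDC2, CNN2, CRABP1, STRA6, ALDH1A3, NGFR, BMF, DUSP6, HMGCS1, FDFT1, LOXL4, AGBL1, COL1A1, COL3A1, THBS1 and PHOX2A among those with values here or in the closing section.

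A gene is called when it differed more than 2-fold with a false discovery rate (FDR, the Benjamini-Hochberg adjusted p of edgeR's quasi-likelihood test) under 0.05. At 1 day, 394 genes were called higher and 160 lower in ATRA cells than in DMSO cells, or 1.95% and 0.791% of 20237 genes tested. In tumors, 52 genes were called higher and 8 lower with RA, or 0.246% and 0.0379% of 21098 genes tested. A total of 17346 genes could be tested in cells, in tumors and for the difference, and the counts that follow are over those. At 1 day 255 of them were called higher (1.47%) and 129 lower (0.744%), and in tumors 33 were called higher (0.19%) and 5 lower (0.0288%). The other 139 higher and 31 lower genes of the 1 day response had too few counts in one of the fits, so that their response in tumors was not compared. The count of 60 genes called in tumors rested on single tumors: it was 33, 24, 28 and 160 without RA tumor 1, 2, 3 or 4, and 91, 34 and 33 without control tumor 2, 3 or 5.

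Of the 255 genes higher at 1 day, 19 were also called higher in tumors (7.45%, where 0.19% of all genes tested were) and none was called lower. With FDR alone, which asks for no minimum fold, 33 of the 255 were higher in tumors (1.56% of all genes tested) and again none was lower (0.236%). The tumor effect was above 0 for 191 of the 255 (74.9%), and for 48.9% of all genes tested. The median log2 fold change of the 255 genes was 0.30 in tumors and 1.42 at 1 day, where the median of all genes was near 0 in both. These genes were chosen for a 1 day rise of more than 2-fold, so their 1 day median lay above 1 by that choice. Genes lower at 1 day were chosen in the same way. For 156 of the 255 the 95% interval of the tumor effect ended short of a 2-fold rise, as it did for 94.8% of all genes tested. Of the 129 genes lower at 1 day, AGBL1 alone was also called lower in tumors, and their median was -0.12 in tumors and -1.26 at 1 day. Seen from the tumors, 19 of the 33 genes higher with RA were among those higher at 1 day, and 30 of the 33 had a 1 day effect of the same sign. These 33 genes, chosen by their tumor effect, had medians of 1.28 in tumors, 1.21 at 1 day and 0.08 for the difference. Bulk RNA cannot tell fewer cells of a kind from less RNA per cell in any of these values.

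The difference itself, the tumor effect minus the 1 day effect, was called for 110 genes: 47 were positive (0.271% of genes tested) and 63 negative (0.363%). Of the genes higher at 1 day, 59 had a called negative difference, that is a smaller effect in tumors. In 50 of the 59 the interval of the tumor effect ended short of a 2-fold rise, as it did for 94.8% of all genes tested. Choosing genes by this difference itself favors a low tumor effect. Of the genes lower at 1 day, 18 had a called positive difference. No gene called at 1 day had a called difference in its own direction, although choosing genes by their 1 day effect favors differences against it. The largest class was undecided: 179 of the genes higher at 1 day and 110 of those lower were neither called in tumors nor had a called difference. Its size depended on the fit, which held 1 spread per gene for cells and tumors although tumors varied far more. With a weight per table, voom called a difference for 178 of the 1 day genes. The part of the shared spread in these counts was not tested. The count of 110 was 54 and 39 without ATRA library 1 or 2, and 39 and 40 without DMSO library 1 or 2. The 77 genes of the 1 day response with a called difference numbered 40, 29, 24 and 26 without those libraries.

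**Figure D1:**
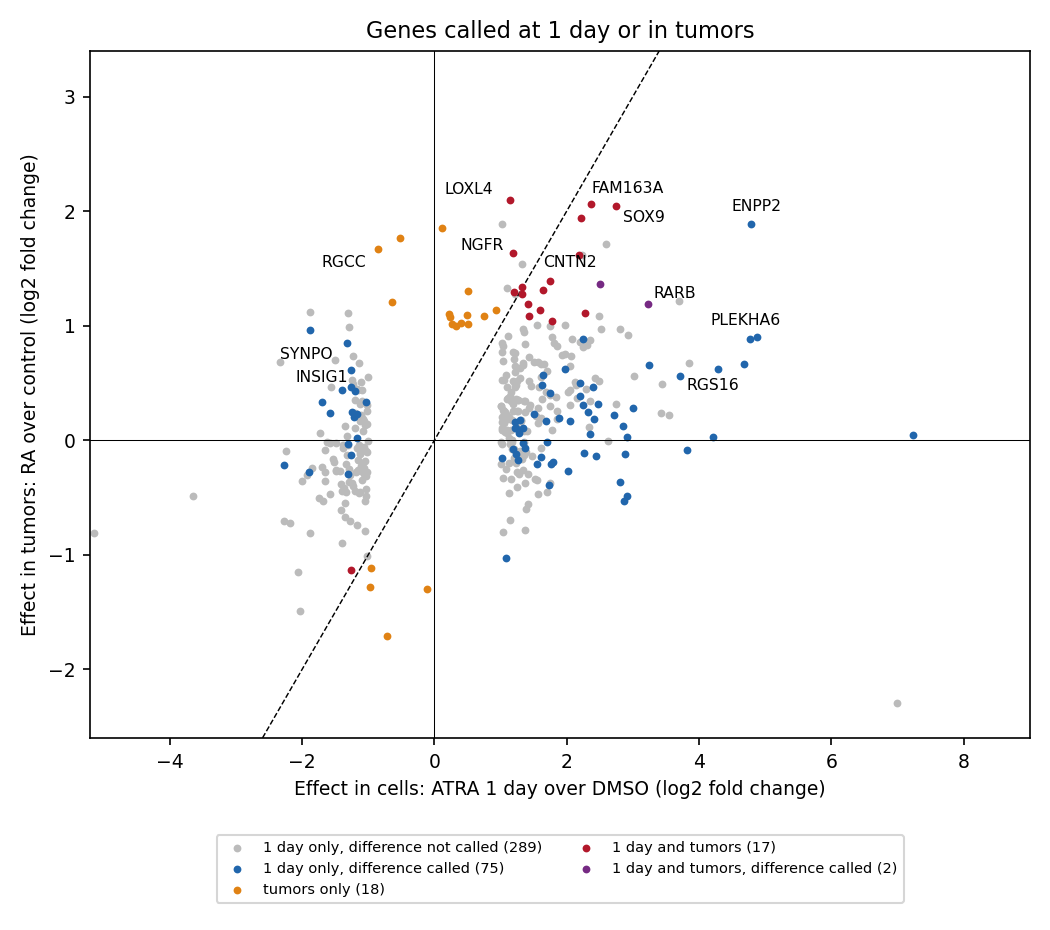
Each point is a gene called at 1 day or in tumors (401 genes; LINC01587 is not shown), placed by its log2 fold change in cells (x axis, ATRA 1 day over DMSO) and in tumors (y axis, RA over control), with equal effects on the dashed line. Most genes called at 1 day lie between the dashed line and 0, and the 75 blue points are genes called at 1 day alone whose difference was called.

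RARB had 8.16, 10.3, 7.25 and 8.84 CPM in RA tumors 1 to 4, against 4.17, 4.00, 4.10, 3.03 and 3.65 CPM in control tumors 1 to 5. In cells it had 7.47 and 7.98 CPM in the ATRA libraries, against 0.923 and 0.704 CPM in the DMSO libraries. Every RA tumor was above every control tumor, and the control tumors were above the DMSO cells, although levels of tumors and cells were scaled separately and were not tested against each other. The log2 fold change was 1.19 ± 0.15 (SE) in tumors (FDR 0.00194) and 3.23 ± 0.14 in cells (FDR 2.14e-20). The difference was -2.04 ± 0.26 (95% interval -2.6 to -1.48, FDR 0.000927), so RARB was called in both and its effect in tumors was called smaller.

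The retinoid handling genes of this paragraph had smaller effects in tumors than in cells, and no tumor effect was called. CRABP1, a carrier of retinoic acid in the cytoplasm, had 40.8, 35.9, 25.7 and 31.7 CPM in RA tumors, against 16.6, 29.9, 22, 23.8 and 17.4 CPM in control tumors, where control tumor 2 lay above RA tumor 3. Its log2 fold change was 0.61 ± 0.18 in tumors (FDR 0.134) and 1.70 ± 0.12 in cells, and the difference of -1.09 ± 0.35 was not called (FDR 0.197). CRABP2, which delivers retinoic acid to the receptors, was at 0.60 ± 0.26 in tumors (FDR 0.308) and 1.22 ± 0.06 in cells, and CYP26B1, which breaks retinoic acid down, at 1.00 ± 0.40 (FDR 0.232) and 1.56 ± 0.25. STRA6, the receptor that takes up retinol, was at 0.23 ± 0.32 in tumors (FDR 0.785) and 1.09 ± 0.04 in cells. The differences of CRABP2 (95% interval -1.5 to 0.25), CYP26B1 (-1.96 to 0.82) and STRA6 (-1.85 to 0.19) were not called, and their intervals leave room for no difference and for a 2-fold one. ALDH1A3, an enzyme that makes retinoic acid, was lower at 1 day (-1.06 ± 0.36, FDR 0.0266) and at -0.30 ± 0.21 in tumors (FDR 0.553).

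Of 17 genes on the list of retinoid handling genes, which counts RARB among them, 12 could be tested throughout. Of the 12, 6 were called higher at 1 day (1.47% of all genes tested) and 1 lower (0.744%). With FDR alone 8 were higher, as 14.3% of all genes tested were. In tumors 2 were called higher (0.19% of all genes tested), and 2 had a called negative difference (0.363%). The median of the 12 was 0.32 in tumors and 0.94 at 1 day. CYP26A1, whose promoter site is shown above, had 1.01, 0.815, 1.26 and 0.340 CPM in RA tumors, against 0.114, 0.701, 0, 0.433 and 0.442 CPM in control tumors, and the effect of 1.27 ± 0.60 was not called (FDR 0.332). In cells it had 0.0267 and 0.0266 CPM with ATRA and 0 and 0 CPM with DMSO, too little to test. DHRS3, an enzyme that reduces retinal, had 0.179, 0.349, 0.281 and 0.170 CPM in RA tumors, against 0, 0.100, 0, 0.163 and 0 CPM in control tumors, and 0.347 and 0.293 CPM in ATRA cells, against 0 and 0.0293 CPM in DMSO cells. Its groups did not overlap in tumors or in cells, but the tumor counts were too low for a test. RARA, a receptor for retinoic acid, was at 0.67 ± 0.12 in tumors (FDR 0.0167) and 0.92 ± 0.03 at 1 day, and RARG at 0.61 ± 0.15 (FDR 0.0489) and 0.27 ± 0.07. Both rose in tumors with FDR alone, less than 2-fold, and neither difference was called (-0.25 ± 0.19 and 0.34 ± 0.21).

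Among the protein-coding genes called in both systems, FAM163A and SOX9 had the largest effects by the smaller of their 2 fold changes. FAM163A, a gene known as a neuroblastoma-derived secretory protein, had 14.2, 11.4, 13.5 and 7.61 CPM in RA tumors, against 1.66, 3.70, 2.92, 3.20 and 2.38 CPM in control tumors, and 18.3 and 16.8 CPM in ATRA cells, against 3.21 and 3.58 CPM in DMSO cells. Levels were alike in tumors and cells, with RA tumor 4 the lowest of the RA tumors. The effect was 2.06 ± 0.22 in tumors (FDR 0.000941) and 2.37 ± 0.08 in cells, and the difference was -0.31 (95% interval -1.05 to 0.42). SOX9, a transcription factor of neural crest and glial cells, had 9.65, 8.77, 6.26 and 4.38 CPM in RA tumors, against 1.14, 2.50, 1.46, 2.27 and 1.33 CPM in control tumors, and 17.2 and 17.4 CPM in ATRA cells, against 2.56 and 2.58 CPM in DMSO cells. Its effect was 2.04 ± 0.27 in tumors (FDR 0.00397) and 2.74 ± 0.09 in cells, and the difference of -0.71 (-1.59 to 0.17) was not called.

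CNTN2, an adhesion protein on growing axons, was the most abundant shared gene. It had 1445, 1271, 1408 and 1115 CPM in RA tumors, against 596, 469, 646, 382 and 400.2 CPM in control tumors, and 189.7 and 191 CPM in ATRA cells, against 57.1 and 56.8 CPM in DMSO cells. Every tumor library lay above every library of cells, although levels of tumors and cells were scaled separately and were not tested against each other. The effects were close: 1.39 ± 0.16 in tumors (FDR 0.00578) and 1.74 ± 0.02 in cells, with a difference of -0.35 (-0.93 to 0.24). NGFR, a receptor for nerve growth factor, had 16, 9.47, 9.40 and 9.62 CPM in RA tumors, against 3.49, 4.66, 2.10, 4.93 and 2.60 CPM in control tumors, and 2.48 and 1.84 CPM in ATRA cells, against 1.03 and 0.850 CPM in DMSO cells. RA tumor 1 stood above the other RA tumors, which were close together and above every control tumor. The effect was 1.63 ± 0.25 in tumors (FDR 0.0108) and 1.19 ± 0.19 in cells, and the difference of 0.44 ± 0.48 was not called.

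**Figure D2:**
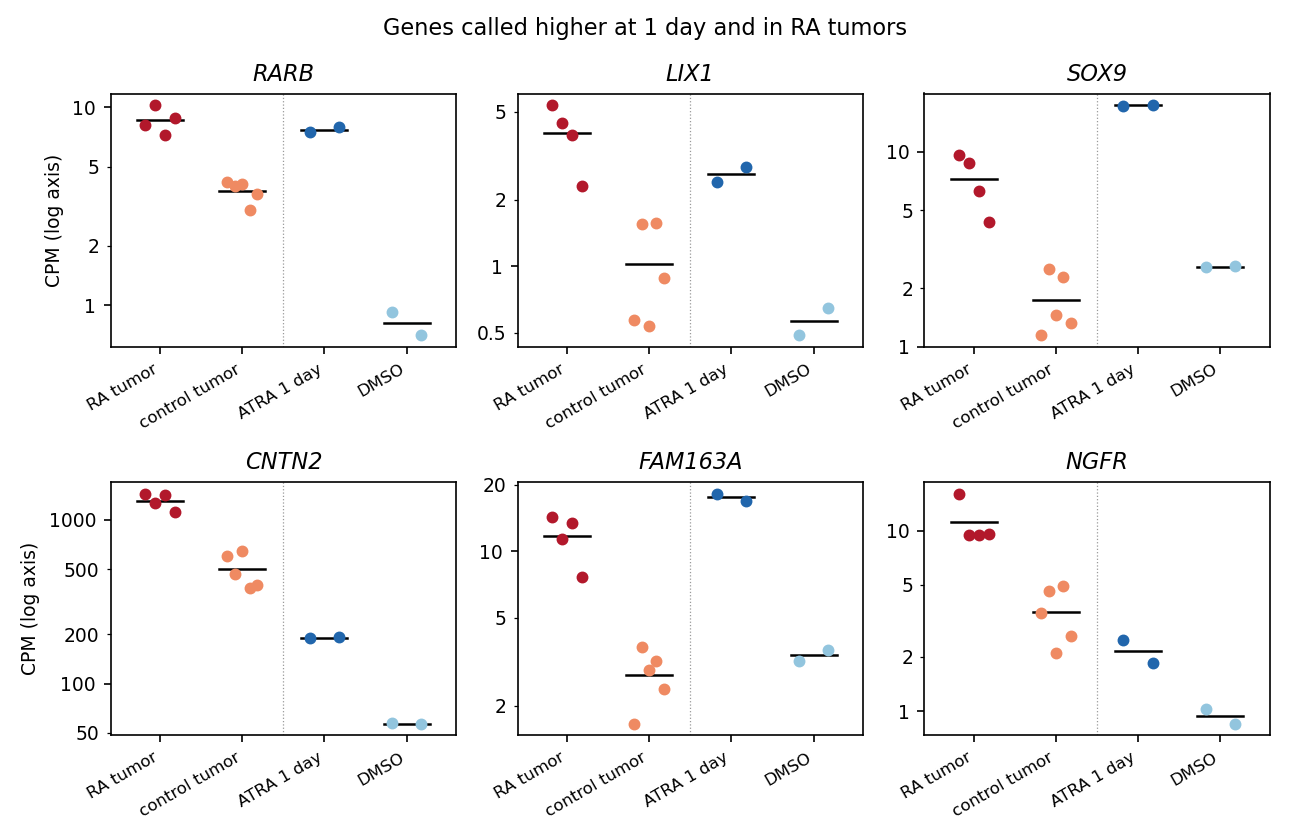
Levels in CPM (y axes, log scale) of RARB, LIX1, SOX9, CNTN2, FAM163A and NGFR, 1 point per library and a line at each group's mean, with tumors left and cells right of the dotted line. In each gene the RA tumors lie above the control tumors and the ATRA cells above the DMSO cells, and RARB shows the wider step in cells.

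LIX1 had 5.36, 4.42, 3.93 and 2.31 CPM in RA tumors, against 0.572, 1.55, 0.540, 1.57 and 0.884 CPM in control tumors, with an effect of 1.94 ± 0.33 (FDR 0.0118) beside 2.21 ± 0.19 in cells. PLCL1, a relative of phospholipase C without its enzyme activity, had 10.1, 8.96, 13.5 and 5.61 CPM in RA tumors, against 2.80, 3.50, 2.81, 2.71 and 3.59 CPM in control tumors, with an effect of 1.62 ± 0.21 (FDR 0.00337) beside 2.18 ± 0.18 in cells. In both genes RA tumor 4 was the lowest RA tumor and still lay above every control tumor. FSTL4, SPOCK1, GRK5 and PRKCH were also among the 10 genes with the largest shared effects. SPOCK1, a proteoglycan of the extracellular matrix, was at 1.29 ± 0.19 in tumors and 1.21 ± 0.09 in cells, and FSTL4, a secreted follistatin relative, at 1.34 ± 0.21 and 1.32 ± 0.07. GRK5, a kinase that turns off G protein-coupled receptors, was at 1.28 ± 0.22 in tumors and 1.32 ± 0.10 in cells, and PRKCH, a protein kinase C, at 1.31 ± 0.17 and 1.65 ± 0.12. The differences of FSTL4, SPOCK1 and GRK5 lay within 0.1 of 0 on the log2 scale, with 95% intervals that reached about 0.8 to either side (-0.72 to 0.75, -0.63 to 0.79 and -0.78 to 0.69).

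Other genes called in both were LOXL4, TMC6, PLPPR1, STK32B, AGBL1, LINC01587 and AC093503.4, named here after their values were seen. LOXL4, an enzyme that cross-links collagen, had 6.79, 4.11, 3.6 and 6.02 CPM in RA tumors, against 1.72, 1.00, 1.19, 1.08 and 0.995 CPM in control tumors, and 5.50 and 6.94 CPM in ATRA cells, against 2.87 and 2.73 CPM in DMSO cells. Its effect was 2.10 ± 0.24 in tumors (FDR 0.000941) and 1.15 ± 0.11 in cells, the largest lead of tumors over cells among the shared genes, although the difference of 0.95 ± 0.36 was not called (FDR 0.264). LINC01587 had 3.93, 3.03, 1.73 and 1.12 CPM in RA tumors, against 0.114, 0.150, 0, 0.217 and 0.166 CPM in control tumors, and 5.71 and 5.64 CPM in ATRA cells. DMSO cells had no count of it, which makes ATRA cells at least 138.3-fold higher against a floor of 3 counts over both DMSO libraries. AGBL1, the shared gene that fell, had 8.28, 11.9, 12.1 and 11.8 CPM in RA tumors, against 15.7, 20.8, 23.4, 26.2 and 35.5 CPM in control tumors, and 0.240 and 0.372 CPM in ATRA cells, against 0.692 and 0.792 CPM in DMSO cells. Over all leave-outs 14 to 20 of these 20 shared genes kept both calls, and AC093503.4 and AGBL1 were the ones lost most often.

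PLEKHA6 had the largest called difference among the protein-coding genes named by rule. It had 232, 171, 190.5 and 147 CPM in RA tumors, against 106, 102, 84.4, 120.2 and 87.8 CPM in control tumors, and 294 and 296 CPM in ATRA cells, against 10.6 and 11.1 CPM in DMSO cells. The groups were apart in both systems, and the control tumors lay between the DMSO and the ATRA cells. The effect was 0.89 ± 0.14 in tumors (FDR 0.0123) and 4.77 ± 0.03 in cells, with a difference of -3.88 (-4.40 to -3.36, FDR 1.18e-05) that was called in all leave-outs and settings.

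RGS16 and RGS8 encode proteins that shorten G protein signals. RGS16 had 82.8, 90.9, 78.3 and 109 CPM in RA tumors, against 76.1, 57.4, 74.4, 44.5 and 53.7 CPM in control tumors, and 49 and 45.9 CPM in ATRA cells, against 3.54 and 3.69 CPM in DMSO cells. The lowest RA tumor was barely above the highest control tumor, and most control tumors were above the ATRA cells. The effect was 0.56 ± 0.16 in tumors (FDR 0.131) and 3.71 ± 0.06 in cells, and the difference was -3.15 ± 0.30 (FDR 0.000358). RGS8 had 77.7, 115, 91.5 and 123 CPM in RA tumors, against 87.5, 65.9, 66.4, 40.3 and 62.3 CPM in control tumors, and 57.4 and 59.2 CPM in ATRA cells, against 5.90 and 6.39 CPM in DMSO cells. Its tumor groups overlapped, the effects were 0.66 ± 0.22 (FDR 0.188) and 3.25 ± 0.05, and the difference was -2.59 ± 0.37 (FDR 0.00657), a call lost without DMSO library 1 or 2.

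In ENPP2, the enzyme that makes lysophosphatidic acid, the tumor effect was large but uneven. It had 4.83, 5.01, 4.72 and 1.63 CPM in RA tumors, against 0.457, 1.55, 0.648, 1.90 and 0.83 CPM in control tumors, so that RA tumor 4 fell among the controls. Cells had 127 and 128 CPM with ATRA, against 4.36 and 4.87 CPM with DMSO. The effect was 1.88 ± 0.42 in tumors (FDR 0.051) and 4.79 ± 0.04 in cells. The difference of -2.94 ± 0.60 (FDR 0.0442) lost its call when any one of RA tumors 1 to 3, control tumors 2 to 5 or the 4 libraries of cells was left out, at -3.12 to -2.63.

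CEMIP, a hyaluronan-degrading protein, showed no rise in tumors: 2.56, 1.94, 1.92 and 2.00 CPM in RA tumors, against 3.20, 1.25, 3.29, 2.71 and 3.04 CPM in control tumors, and 8.09 and 6.44 CPM in ATRA cells, against 0.898 and 1.2 CPM in DMSO cells. Its effect was -0.36 ± 0.25 in tumors (95% interval -0.90 to 0.18), and the difference was -3.15 ± 0.41 (FDR 0.000927). CNN2, an actin-binding calponin, had 4.65, 4.66, 3.97 and 7.07 CPM in RA tumors, against 6.63, 3.35, 6.80, 6.72 and 6.08 CPM in control tumors, and 154 and 148 CPM in ATRA cells, against 43.8 and 44.9 CPM in DMSO cells. In this gene the tumor interval of -0.67 to 0.26 ended well short of the cells' 1.77 ± 0.03, and the difference was -1.96 ± 0.30 (FDR 0.00586), not called without DMSO library 1 or 2. PPP1R27, APCDD1L and FAXDC2 behaved likewise. Their tumor effects of -0.49 ± 0.27, 0.12 ± 0.26 and -0.27 ± 0.24 were not called and their groups overlapped, beside 2.91 ± 0.23, 2.86 ± 0.20 and 2.01 ± 0.13 in cells. Of these, the difference of APCDD1L (-2.73) lost its call without DMSO library 1, and that of FAXDC2 (-2.28) without any one library of cells.

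**Figure D3:**
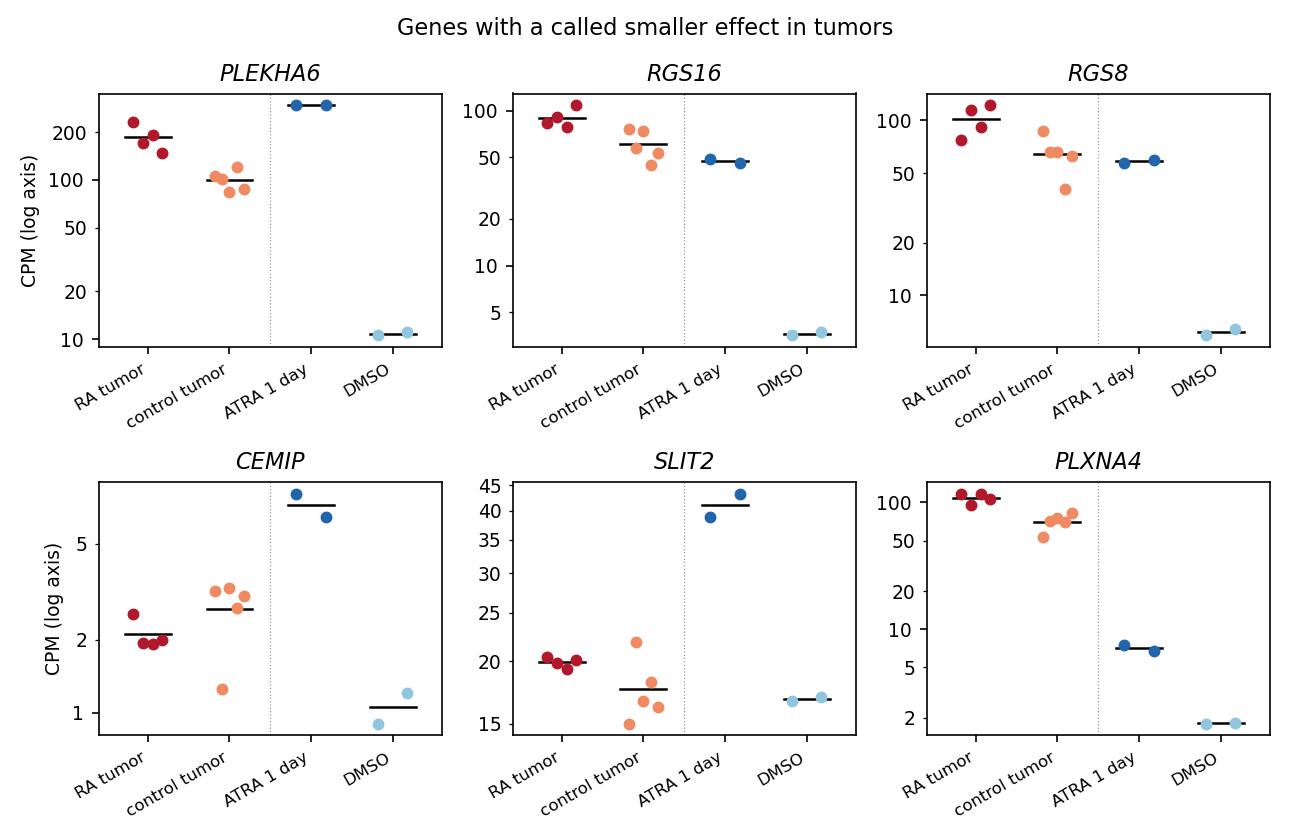
Levels in CPM (y axes, log scale) of PLEKHA6, RGS16, RGS8, CEMIP, SLIT2 and PLXNA4, 1 point per library and a line at each group's mean, with tumors left and cells right of the dotted line. The step between ATRA and DMSO cells is larger than that between RA and control tumors in each gene, and control tumors of PLEKHA6, RGS16, RGS8 and PLXNA4 already lie above the DMSO cells.

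Over the 59 genes with a called smaller effect, the median level was 3.84 CPM in control tumors and 1.66 CPM in DMSO cells, and over the 19 genes called higher in both it was 3.56 and 3.39 CPM. Over the 179 genes higher at 1 day with neither call it was 1.80 CPM in control tumors and 0.465 CPM in DMSO cells. These levels come from separately scaled tables and were not tested.

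Axon guidance genes, which steer growing nerve fibers, gave called differences in both directions. SLIT2, a secreted repellent, had 20.4, 19.8, 19.3 and 20.1 CPM in RA tumors, against 15, 21.9, 16.7, 18.1 and 16.2 CPM in control tumors, and 38.8 and 43.3 CPM in ATRA cells, against 16.6 and 16.9 CPM in DMSO cells. Control tumor 2 lay above every RA tumor, and the difference of -1.11 ± 0.16 (FDR 0.00247) was called in every setting. PLXNA4, a semaphorin receptor, had 118, 95.4, 116 and 106 CPM in RA tumors, against 53.6, 71.5, 75.1, 70.2 and 82.8 CPM in control tumors, and 7.5 and 6.78 CPM in ATRA cells, against 1.79 and 1.82 CPM in DMSO cells. It rose in both systems, by 0.62 ± 0.11 in tumors with FDR alone (FDR 0.0123) and by 1.98 ± 0.11 in cells, and the difference was -1.36 ± 0.23 (FDR 0.00593), a call lost without DMSO library 1 or 2.

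SEMA3D, a secreted semaphorin that fell at 1 day, had 1.49, 1.63, 2.15 and 1.77 CPM in RA tumors, against 1.2, 2.65, 1.46, 1.41 and 0.719 CPM in control tumors, and 1.92 and 1.78 CPM in ATRA cells, against 5.23 and 5.80 CPM in DMSO cells. The tumor groups overlapped, and the difference of 1.81 ± 0.43 (FDR 0.0495) was close to the threshold: it was lost without any one of the RA tumors, control tumors 1, 3 and 4 or the libraries of cells. ROBO2, a receptor for SLIT proteins, was at 0.90 ± 0.16 in tumors (FDR 0.0237) and 0.92 at 1 day, and PLXNA1 at 0.60 ± 0.10 in tumors (FDR 0.0138) and -0.37 at 1 day. Over the list, 42 of 43 genes could be tested. At 1 day 2 were called higher (1.47% of all genes tested) and 3 lower (0.744%). None was called in tumors, where 0.19% of all genes tested were called higher and 0.0288% lower, too few to expect a call among 42. Of the called differences 1 was positive (0.271% of all genes tested) and 2 were negative (0.363%). CXCR4, a receptor that guides migrating cells, had 47.8, 37.9, 29.2 and 18.4 CPM in RA tumors, against 5.95, 22.5, 9.50, 27.8 and 10.1 CPM in control tumors, and 0.320 and 0.346 CPM in ATRA cells, against 1.49 and 0.968 CPM in DMSO cells. It was lower at 1 day (-1.88 ± 0.36), but its tumor groups overlapped and the difference of 3.00 ± 1.32 was not called (FDR 0.393).

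Of the genes lower at 1 day, SYNPO, an actin-associated protein of synapses, had the largest called difference by the naming rule. It had 29, 29.9, 23.4 and 21.0 CPM in RA tumors, against 16.3, 13.4, 12.5, 16.9 and 12.3 CPM in control tumors, and 1.07 and 1.41 CPM in ATRA cells, against 3.21 and 3.02 CPM in DMSO cells. The groups were apart in both systems and in opposite directions: 0.85 ± 0.13 in tumors (FDR 0.00647, under 2-fold) and -1.33 ± 0.18 in cells. Its difference of 2.18 ± 0.27 (FDR 0.000803) was called in every setting. NOTCH1, a receptor that holds back neuronal differentiation, had 2.15, 1.82, 1.26 and 1.39 CPM in RA tumors, against 0.572, 1.10, 1.29, 2.55 and 0.995 CPM in control tumors, and 2.16 and 2.66 CPM in ATRA cells, against 7.28 and 8.38 CPM in DMSO cells. With overlapping tumor groups, its difference of 2.02 ± 0.48 (FDR 0.0486) was lost without RA tumor 1, 2 or 3, control tumor 2, 3 or 5 or any library of cells. CNTN5, an adhesion protein of neurons, was at 0.61 ± 0.33 in tumors and -1.26 ± 0.19 in cells, and RTN4RL1, a receptor that limits axon growth, at 0.44 ± 0.19 and -1.40 ± 0.25. Their differences, 1.87 ± 0.43 (FDR 0.0407) and 1.84 ± 0.33 (FDR 0.00922), lost their calls without any one library of cells, except that RTN4RL1 kept its call without ATRA library 2, and that of CNTN5 also without RA tumor 1, 2 or 3 or control tumor 1 or 5.

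Cholesterol synthesis genes formed the list with the most called differences, all positive. This list, like the others here, was chosen with earlier results of these data known. The shares of all genes tested beside it therefore give a scale and are not a test of the list. These genes are switched on together by the transcription factor SREBP2 when a cell's sterols run low. Of 20 listed, 19 could be tested, and all 19 fell at 1 day with FDR alone (15.2% of all genes tested), of which INSIG1 was called. In tumors none was called, 7 rose with FDR alone (1.56% of all genes tested), and all 19 effects were above 0 (48.9%). The difference was positive for 15 with FDR alone (0.744% of all genes tested), and 5 of them were called. The median of the 19 was 0.33 in tumors, -0.56 at 1 day and 0.82 for the difference. The 7 rises in tumors numbered 2, 0, 4 and 6 without RA tumor 1, 2, 3 or 4, 4, 4 and 3 without control tumor 1, 3 or 5, and without some single tumors 18 of the 19 tumor effects were above 0. The 15 positive differences numbered 7 without ATRA library 1 or 2 and 8 without DMSO library 1 or 2. The called differences numbered 5 or 6 in all leave-outs.

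INSIG1, which holds SREBP proteins back when sterols are plentiful, had 47.4, 49.3, 38.4 and 39.3 CPM in RA tumors, against 32.1, 34.8, 33.9, 29.7 and 31.3 CPM in control tumors, and 33.0 and 32.7 CPM in ATRA cells, against 75.4 and 75.0 CPM in DMSO cells. The 2 systems moved in opposite directions with no overlap: 0.43 ± 0.09 in tumors (FDR 0.0261) and -1.19 ± 0.04 in cells, a difference of 1.62 ± 0.14 (FDR 2.15e-05). HMGCS1, an early enzyme of the pathway, was at 0.65 ± 0.12 in tumors (FDR 0.0224) and -0.89 ± 0.03 in cells, and FDFT1, which makes squalene, at 0.69 ± 0.12 (FDR 0.0134) and -0.81 ± 0.03. MSMO1, a later enzyme, was at 0.43 ± 0.11 in tumors (FDR 0.0727) and -0.87 ± 0.04 in cells. The differences of HMGCS1 (1.54 ± 0.20), FDFT1 (1.49 ± 0.19) and MSMO1 (1.3 ± 0.18), with that of INSIG1, were called in every setting.

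**Figure D4:**
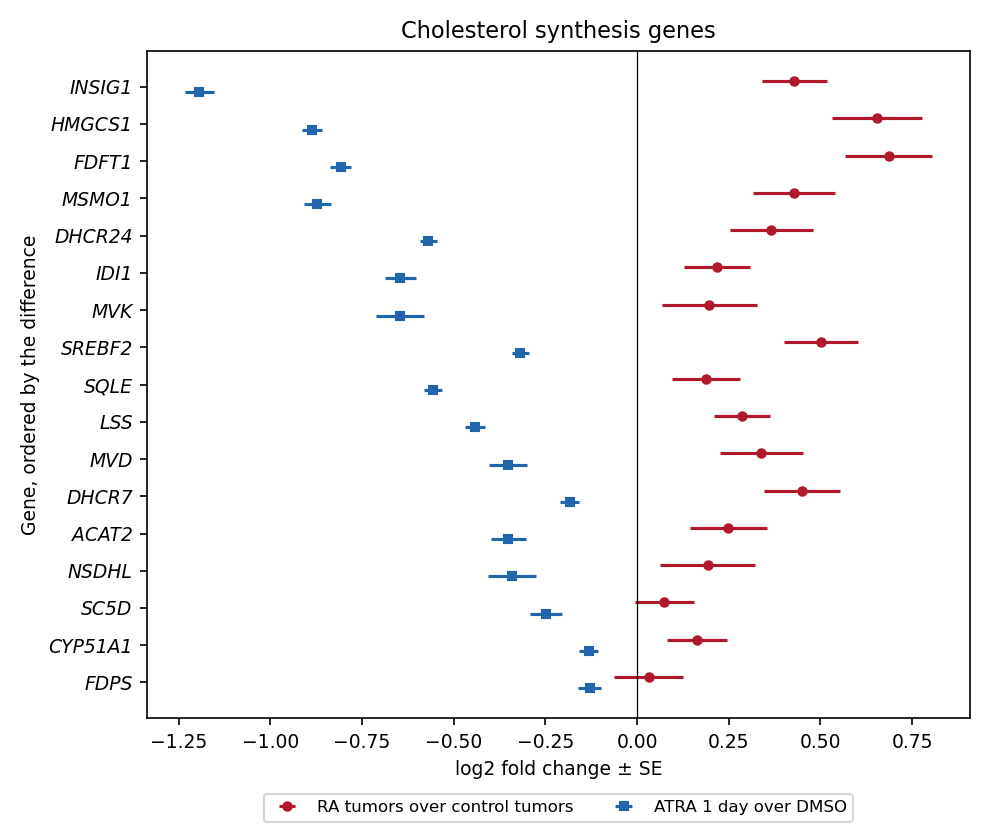
Log2 fold changes with their SEs (x axis) of 17 tested cholesterol synthesis genes (y axis, ordered by the difference) in tumors (red circles, RA over control) and in cells (blue squares, ATRA 1 day over DMSO). All red points lie right of 0 and all blue points left of it.

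Of 16 tested cell death genes, BMF and HRK had called differences, both negative (0.363% of all genes tested). The list as a whole lay near 0, with medians of -0.08 in tumors, -0.03 at 1 day and 0.02 for the difference. BMF and HRK encode proteins that switch on the mitochondrial pathway of cell death. BMF had 4.05, 3.96, 3.41 and 4.69 CPM in RA tumors, against 5.55, 3.15, 4.43, 4.66 and 4.26 CPM in control tumors, and 6.65 and 7.85 CPM in ATRA cells, against 3.18 and 2.99 CPM in DMSO cells. HRK had 12.5, 11.9, 12.7 and 12.7 CPM in RA tumors, against 13.3, 12.4, 15.9, 16.1 and 13.8 CPM in control tumors, and 3.82 and 4.79 CPM in ATRA cells, against 2.23 and 2.11 CPM in DMSO cells. Tumor groups overlapped in both genes, and neither tumor effect was called (-0.12 ± 0.17 and -0.20 ± 0.10). At 1 day BMF was at 1.23 ± 0.11 and HRK at 0.98 ± 0.15, just under 2-fold. The differences were -1.35 ± 0.27 (FDR 0.0176) for BMF and -1.18 ± 0.20 (FDR 0.00586) for HRK. The call of BMF was lost without any one library of cells, and that of HRK without ATRA library 2 or DMSO library 1 or 2.

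DUSP6, which shuts off ERK kinase signals, was the immediate early gene with a called difference: 1.07, 1.16, 0.935 and 0.680 CPM in RA tumors, against 0.515, 1.05, 0.594, 1.25 and 0.608 CPM in control tumors, and 2.59 and 2.47 CPM in ATRA cells, against 0.590 and 0.410 CPM in DMSO cells. The difference was -2.08 ± 0.47 (FDR 0.0401) and was lost without RA tumor 1 or 3, control tumor 2 or any library of cells. Across the 19 tested immediate early genes, 4 were called higher at 1 day (DUSP5, DUSP6, SPRY4 and FOSL1), where 1.47% of all genes tested were. These calls rested on low counts, as in FOSL1, with 33 counts in ATRA cells and 5 in DMSO cells. None of the 19 was called in tumors, where 0.19% of all genes tested were called higher and 0.0288% lower. The median was 0.08 in tumors and 0.55 at 1 day. RET, the receptor for GDNF, had 3.69, 5.43, 3.46 and 3.50 CPM in RA tumors, against 2.74, 2.85, 2.10, 1.41 and 1.88 CPM in control tumors, and 3.79 and 4.23 CPM in ATRA cells, against 0.769 and 0.792 CPM in DMSO cells. Its tumor groups did not overlap, yet neither the tumor effect of 0.87 ± 0.22 (FDR 0.0674) nor the difference of -1.48 ± 0.38 (FDR 0.0694) was called. SKIL, a repressor of SMAD signals, rose at 1 day (1.2 ± 0.02) and was at 0.32 ± 0.11 in tumors (FDR 0.183). Its difference of -0.88 ± 0.18 (FDR 0.0271) was under 2-fold and so not called, but negative with FDR alone (0.634% of all genes tested).

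RGCC and CHST15 were the genes called in tumors and not at 1 day whose difference was called. RGCC, a regulator of the cell cycle, had 16.7, 14.7, 16.4 and 16.8 CPM in RA tumors, against 4.75, 6.46, 5.40, 3.52 and 5.14 CPM in control tumors, and 0.614 and 0.692 CPM in ATRA cells, against 1.39 and 0.968 CPM in DMSO cells. The RA tumors were close together and well above the controls. Its effect was 1.67 ± 0.14 in tumors (FDR 9.23e-05) and -0.86 ± 0.26 in cells (FDR 0.0106), and the difference of 2.52 ± 0.33 (FDR 0.000927) was called in every setting. CHST15, which adds sulfate to chondroitin chains, had 2.56, 1.48, 1.87 and 1.60 CPM in RA tumors, against 0.457, 0.651, 0.918, 1.08 and 0.884 CPM in control tumors, and 2.72 and 2.69 CPM in ATRA cells, against 4.36 and 4.05 CPM in DMSO cells. Its effects were 1.21 ± 0.28 (FDR 0.0411) and -0.64 ± 0.15, and the difference of 1.84 ± 0.37 (FDR 0.0176) was lost without any one library of cells.

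Of 24 neuronal differentiation genes, all tested, 22 had a tumor effect above 0 (48.9% of all genes tested), and the median was 0.30 in tumors and -0.01 at 1 day. In tumors 7 rose with FDR alone (CNTN2, NEFL, TUBB3, MAPT, STMN4, MAP2 and SNAP25), where 1.56% of all genes tested did, CNTN2 alone was called, and no difference was called. TUBB3, a neuronal tubulin, had 608, 547, 576 and 552 CPM in RA tumors, against 362, 494, 404, 405 and 393 CPM in control tumors, and 908 and 884 CPM in ATRA cells, against 902 and 915 CPM in DMSO cells. Its effect was 0.47 ± 0.08 in tumors (FDR 0.011) and -0.02 ± 0.02 in cells, and the difference of 0.49 ± 0.13 missed the threshold (FDR 0.0814). The 7 rises were 2 without any one of RA tumors 1 to 3 or control tumors 1, 3 and 5, 4 without control tumor 4, and 13 without RA tumor 4. PHOX2A, a transcription factor of sympathetic neurons, was called higher in tumors (1.02 ± 0.21, FDR 0.0312) and was at 0.40 ± 0.05 at 1 day.

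Cell cycle genes gave no called difference. Tumor effects were at or below 0 for all 26 tested G1/S genes (median -0.22 in tumors and 0.01 at 1 day) and all 25 tested G2/M genes (median -0.21 and -0.15). Of all genes tested, 51.1% had a tumor effect below 0. At 1 day 19 of the G2/M genes fell with FDR alone (15.2% of all genes tested), and in tumors 1 did (0.236%), namely BIRC5 (-0.41 ± 0.09, FDR 0.0366). Without RA tumor 1 or 3 or control tumor 1, 2 or 5, up to 3 effects of a list were above 0. The ID genes, targets of BMP signals that block neuronal differentiation factors, had no call in either system or for the difference. ID1 had 9.65, 3.34, 4.25 and 2.07 CPM in RA tumors, against 1.2, 1.70, 1.08, 15.8 and 1.38 CPM in control tumors, and 104 and 99.95 CPM in ATRA cells, against 102 and 103 CPM in DMSO cells. Control tumor 4 was far above the other control tumors, and the difference of 0.10 ± 1.22 had the widest interval of the genes named in this paragraph (-2.64 to 2.85).

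No hypoxia or glycolysis gene was called in tumors. VEGFA, a list member that draws in blood vessels, differed widely between tumors of a group: it had 564, 360.4, 307 and 154 CPM in RA tumors, against 46.7, 179, 75.7, 283 and 66.3 CPM in control tumors, and 24.3 and 23.0 CPM in ATRA cells, against 19.4 and 19 CPM in DMSO cells. RA tumor 4 was the lowest RA tumor and control tumors 2 and 4 were the highest controls. The same tumors held those places for LIX1, ENPP2, CXCR4, SOX9, FAM163A and PLPPR1. They did not for RARB, where RA tumor 3 was lowest and control tumor 1 highest. For CNTN2, RA tumor 4 was again the lowest RA tumor, but control tumors 3 and 1 were the highest controls. For RGS16, RA tumor 4 was the highest RA tumor. How many genes follow either order was not counted. Of 19 tested genes of the list 18 had tumor effects above 0, as 48.9% of all genes tested had. Their median was 0.76 in tumors and -0.09 at 1 day, and no difference was called. The part of the spread of VEGFA in the tumor effects given above was not tested.

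Of 9 tested fibroblast markers, 4 were called lower at 1 day (0.744% of all genes tested). None was called in tumors, where 0.19% of all genes tested were called higher and 0.0288% lower, too few to expect a call among 9. The 12 fibroblast markers summed to 71.5 to 86.9 CPM in RA tumors and 68.0 to 170.4 CPM in control tumors, where control tumor 4 was the highest. In cells they summed to 113 to 114 CPM with ATRA and 154 to 158 CPM with DMSO. COL1A1, a fibrillar collagen, had 26.8, 13.5, 15.3 and 11.9 CPM in RA tumors, against 23.2, 11.7, 19.2, 78.8 and 13.4 CPM in control tumors, and 4.51 and 4.60 CPM in ATRA cells, against 16.9 and 16.7 CPM in DMSO cells. Its effect was -0.81 ± 0.65 in tumors (FDR 0.617) and -1.88 ± 0.09 in cells, and the difference of 1.07 ± 1.06 was not called. STC1, a secreted hormone on the hypoxia and glycolysis list, had 161, 128, 194 and 150.4 CPM in RA tumors, against 173, 328, 319.5, 455 and 484 CPM in control tumors, and 48.8 and 49.7 CPM in ATRA cells, against 208 and 204 CPM in DMSO cells. It fell at 1 day (-2.06 ± 0.03) and was at -1.15 ± 0.30 in tumors (FDR 0.126), where RA tumor 3 overlapped control tumor 1.

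**Figure D5:**
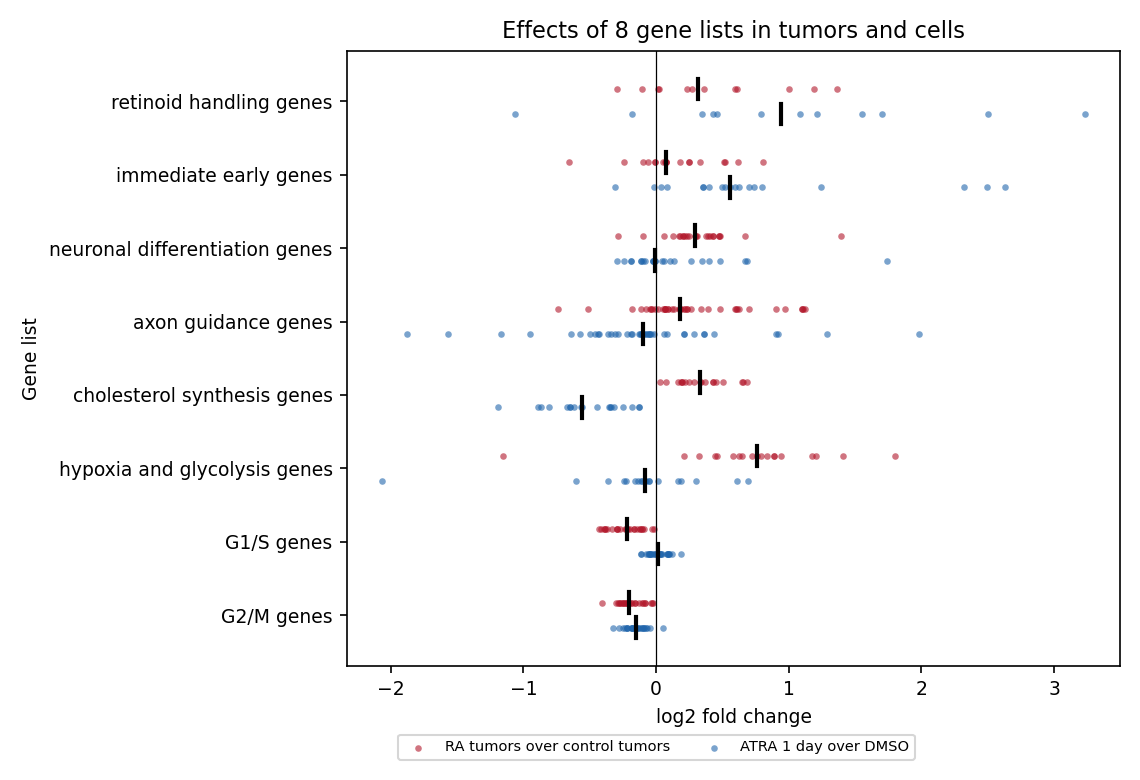
Log2 fold changes (x axis) of the tested genes of 8 lists (y axis) in tumors (red, RA over control) and in cells (blue, ATRA 1 day over DMSO), with a black bar at each median. Cholesterol synthesis genes lie right of 0 in tumors and left of it in cells, and most hypoxia and glycolysis genes lie right of 0 in tumors.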

How the data were processed

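RNA-seq libraries of CHP-134 cells (Illumina Stranded Total RNA with Ribo-Zero Plus) and tumors (KAPA RNA HyperPrep with RiboErase) were read on a NovaSeq. Expected counts per gene, not normalized, were deposited by the authors, who used Trim Galore 0.4.4, STAR 2.7.10a on hg38 and RSEM 1.3.3 per the processing notes. Removal of mouse reads, the annotation release and the strand setting are not given in the sources used here. Here the 2 tables were joined on gene ID (60662 genes), and expected counts were rounded. Genes were kept with filterByExpr (minimum count 10), scaled by TMM within each table, and tested with edgeR 4.0.16 (R 4.3.3) by quasi-likelihood with Benjamini-Hochberg adjustment. The 1 day effect was fitted on 8 culture libraries, the tumor effect on 9 tumor libraries and the difference, (RA minus control tumors) minus (ATRA minus DMSO cells), on 13. The fit of the difference held 1 spread per gene for cells and tumors. A scale common to 1 table cancels in the difference. SE is the size of the log2 fold change over the square root of F. CPM used the TMM-scaled totals. No label says that the culture libraries came from separate cultures, and their spread, on which the p-values of cells rest, may be technical. The fits were tested on simulated data with known changes.

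The genes named are called members of 28 gene lists and the ID genes, the 10 shared genes with the largest smaller effect, the 10 and 5 genes higher and lower at 1 day with the largest called differences, and genes called in tumors alone with a called difference. These 3 last sets took protein-coding genes with at least 1 CPM. Members and lists were chosen with earlier results of these data known. Alternatives were other scalings, DESeq2 1.42.0, limma voom 3.58.1 with a weight per table, other filters and libraries in the fit, a replicate block, and leaving out each library. Gene overlaps came from GENCODE and promoters from RefSeq. Intervals cover 95%. Some genes are not reported here by name, but count in the totals.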

Additional observations from a re-analysis of the deposited data

Results flagged for a closer look

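Single tumors stood apart from the rest of their group (by the gap to the nearest tumor over the range of the group) in 15 of 148 groups examined, where chance gives about 1 in 20. Control tumor 4 was high for COL1A1 (78.8 CPM), COL3A1 (19.4 CPM), THBS1 (7.04 CPM), ID1 (15.8 CPM) and ID3 (6.83 CPM). Control tumor 2 was low for PPP1R27 (1.5 CPM), CEMIP (1.25 CPM) and CNN2 (3.35 CPM). RA tumor 1 was high for NGFR (16 CPM) and CEMIP (2.56 CPM) and low for AGBL1 (8.28 CPM). RA tumor 2 was high for RET (5.43 CPM), RA tumor 4 low for ENPP2 (1.63 CPM), control tumor 3 high for CNTN5 (1.40 CPM) and control tumor 1 high for LOXL4 (1.72 CPM).

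The difference between the tumor effect and the 1 day effect was itself called for 26 named genes (log2, tumors minus cells). It was negative for PLEKHA6 (-3.88), PPP1R27 (-3.41), CEMIP (-3.15), RGS16 (-3.15), ENPP2 (-2.94), APCDD1L (-2.73), RGS8 (-2.59), FAXDC2 (-2.28), DUSP6 (-2.08), RARB (-2.04), CNN2 (-1.96), PLXNA4 (-1.36), BMF (-1.35), HRK (-1.18) and SLIT2 (-1.11). It was positive for RGCC (2.52), SYNPO (2.18), NOTCH1 (2.02), CNTN5 (1.87), RTN4RL1 (1.84), CHST15 (1.84), SEMA3D (1.81), INSIG1 (1.62), HMGCS1 (1.54), FDFT1 (1.49) and MSMO1 (1.3).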

How the results depend on the processing

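Counts of called genes moved with the test and with single libraries, and the cause was not tested. At 1 day, in tumors and for the difference, DESeq2 called 337, 118 and 184 genes, where edgeR called 554, 60 and 110. With a weight per table, voom called 310 differences, 178 of them among the 1 day genes. FDR alone gave 5339 genes at 1 day, 342 in tumors, 239 differences, 163 1 day genes shared with tumors and 234 with a difference. The replicate block gave 12 genes in tumors, 46 differences, 5 shared genes and 28 of the 1 day genes with a difference, with 543 genes at 1 day, although same-numbered samples did not deviate together (r 0.006 in cells, -0.42 to 0.157 in tumors). Leaving out 1 library gave 504 to 554 genes at 1 day, 24 to 160 in tumors, 39 to 140 differences, 14 to 26 shared genes and 24 to 84 1 day genes with a difference. Over all settings, named genes kept the direction and call of their difference in 1343 cases, lost the call in 96, gained it in 19 and turned sign in 20. No called difference turned sign. Signs turned for FSTL4 (-0.0148 under the replicate block, -0.132 to 0.139 in leave-outs), GRK5 (-0.20 to 0.12), SPOCK1 (-0.039 to 0.20), ID1 (-0.42 to 1.75), ID3 (-0.76 to 0.26) and AGBL1 (-0.15 to 0.47). Low counts left 139 higher and 31 lower genes of the 1 day response out of the comparison.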

Other observations

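Several genes responded to RA in tumors and were at or near 0 in the 1 day and DMSO cells, so that no difference could be fitted. ADH1C, an alcohol dehydrogenase that also oxidizes retinol, had 3.04, 2.33, 2.85 and 0.646 CPM in RA tumors, against 0.0572, 0, 0, 0 and 0.0553 CPM in control tumors, and 0.0267 and 0 CPM in 1 day ATRA cells, against 0 and 0 CPM in DMSO cells. The tumor effect of ADH1C was 6.30 ± 0.69 and was called (FDR 0.000941). Cells kept in ATRA for 3 days had 0.191 and 0.239 CPM of it, and those kept for 6 days 2.73 and 2.62 CPM. SLC30A8, a zinc transporter of secretory granules, had 1.79, 2.37, 2.85 and 0.986 CPM in RA tumors, against 0.229, 0.651, 0.432, 1.08 and 0.497 CPM in control tumors, and 0 CPM in every 1 day ATRA and DMSO library (tumor effect 1.76 ± 0.38, FDR 0.0326). CPB1, a carboxypeptidase, fell in RA tumors: 0.179, 0.155, 0.0935 and 0.136 CPM in RA tumors, against 0.515, 0.551, 0.540, 0.542 and 0.83 CPM in control tumors (-2.05 ± 0.38, FDR 0.0154). In all, 19 of the 52 genes higher in RA tumors were not tested for the difference.

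Other genes were called in tumors and moved less than 2-fold at 1 day, without a called difference. ASAP2, a regulator of membrane traffic, had 154, 139, 130.4 and 128 CPM in RA tumors, against 64.0, 84.5, 58.6, 60.8 and 55.1 CPM in control tumors (1.09 ± 0.11, FDR 0.000941), and was at 0.49 ± 0.03 in cells. KCND2, a potassium channel of neurons, was at 1.3 ± 0.25 in tumors (FDR 0.0434) and 0.52 ± 0.05 in cells, and DYNC1I1, a dynein chain of neurons, at 1.02 ± 0.17 (FDR 0.0109) and 0.51 ± 0.11. IGSF1 had 38.6, 56.4, 57.9 and 78.3 CPM in RA tumors, against 116, 95.8, 124, 130.0 and 166 CPM in control tumors (-1.12 ± 0.22, FDR 0.0461), and was at -0.96 ± 0.03 in cells.

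A further 31 differences were called where neither effect was, 27 of them positive. BMP7, a BMP ligand, had 33.1, 28.4, 24.3 and 25.2 CPM in RA tumors, against 17.8, 17.5, 17.8, 12.3 and 15.3 CPM in control tumors, and 8.06 and 8.94 CPM in ATRA cells, against 9.87 and 10.7 CPM in DMSO cells, a difference of 1.05 ± 0.21 (FDR 0.0162). AGRN, which organizes synapses, and P2RX3, an ATP-gated channel of sensory neurons, had differences of 1.45 ± 0.27 and 1.15 ± 0.25. Genes of this and the other paragraphs of this section were picked after their values were seen.

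The later times of ATRA, which share the DMSO libraries with the 1 day comparison, set the tumor effects beside longer exposure. The 19 genes higher at 1 day and in tumors had median log2 fold changes of 1.74, 3.07 and 4.57 at 1, 3 and 6 days, and 1.34 in tumors. The 59 genes with a called smaller effect in tumors, chosen by that difference, had medians of 2.21, 3.04 and 3.75, and 0.13 in tumors. At 6 days 54 of these 59 genes were called. So were all 19 genes higher at 1 day and in tumors, and 152 of the 179 genes higher at 1 day with neither call. A call at 6 days was thus not particular to the 59 genes. Of the 19 cholesterol synthesis genes, 3 were lower and 11 higher with FDR alone at 3 days, and 9 lower and 8 higher at 6 days.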
